A study of Mus musculus with 8 samples.

Results

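The genes described here are 29 regulators of histone acetylation and DNA methylation, read in the medial prefrontal cortex (mPFC) of adult male mice. They are the 11 zinc-dependent histone deacetylases, the sirtuin Sirt1, 3 DNA methyltransferases, 3 TET dioxygenases, 4 methyl-CpG-binding domain proteins, 5 histone methylation enzymes and 2 acetyltransferases. They were chosen as a named family and not by a threshold on their values, and all 29 of 29 were found among the 34741 genes named on the array. The array carries 47 probes for them, and all 47 were well above background in all 8 samples. A gene was represented by its brightest probe, the probe with the highest mean signal over the 8 arrays. Levels are log2 signals, scaled so that the 75th percentile of each array lies at 0.

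The study exposed C3H/HeN mice, an inbred strain, to maternal separation (MS). The 4 MS mice had been taken from the dam daily from postnatal day 2 to 14, while the dam met unpredictable stress. The 4 control mice were left with undisturbed dams, and all 8 were weaned at postnatal day 21, housed by condition and killed as adults after operant tests for palatable food. RNA came from whole mPFC tissue, described as dissected in the methods of the study and as micropunches in its results, with 1 mouse per array. Animals are named by group and label number, such as control 8.4. The comparison asks whether MS left a difference in the mPFC. In such mixed tissue, fewer cells of a type and less RNA per cell cannot be told apart.

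Histone deacetylases take acetyl groups from histone tails, mostly as the catalytic part of repressor complexes, and acetyltransferases put them on. DNA methyltransferases write methyl groups on cytosine, TET enzymes oxidise them, and methyl-CpG-binding proteins recruit repressor complexes to them. In the adult brain these enzymes are studied as a route by which early experience could leave a lasting mark on neurons.

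Cortical identity was checked first. The 9 cortical excitatory markers read here, among them Slc17a7 and Tbr1, were well above background in all 8 samples. Of these 9, 8 were higher and 1 lower in MS, none past the test, next to 54.9% higher among all tested probes. Of 12 striatal markers 2 were higher and 10 lower in MS, and of 9 tested olfactory bulb markers 0 were higher and 9 lower. None of these passed the test either. The counts include control 8.4. Control 8.4 stood apart from the other 7 arrays, with a median correlation of 0.987 against at least 0.993 for each of the others. Its striatal marker score (12 genes, mean log2 relative to the 8 arrays) was 1.06, against -0.25 to -0.05 elsewhere. Its olfactory bulb score (9 genes) was 2.60, and MS 7.6 (1.41) and control 8.5 (0.83) were also above 0, against -1.13 to -0.67 in the other 5. Oligodendrocyte and astrocyte scores were highest in control 8.4 too, at 0.38 and 0.55. The score of the 9 cortical markers was lowest there, at -0.42, against -0.06 to 0.17 in the other 7. For the members that control 8.4 moved most, the value without it is also given. The part of neighbouring tissue in these results was not tested.

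No gene of the 29 passed the test between MS and control mPFC. In limma 0 of 29 passed a Benjamini-Hochberg adjusted p of 0.05 over all 34096 tested probes (smallest adjusted p = 0.9995), and 0 of 29 had an unadjusted p under 0.05. Over all tested probes, 0% passed the adjusted threshold and 2.39% were under the unadjusted one. The MS and control values overlapped for all 29 genes, and did not overlap for 1.43% of all tested probes. The direction was divided, with 15 genes higher and 14 lower in MS. Their median log2 fold change was 0.02, next to 0.01 over all tested probes, and the median size was 0.05, next to 0.08. The 95% confidence interval included 0 for each of the 29 and lay within 1 log2 unit for all 29, and within 0.5 for 26. Dnmt3b, Ezh2 and Suv39h1 were the exceptions. An interval that includes 0 does not show that the groups were alike. It gives a range for the difference only if the mice are independent, and mice sharing a label number could be littermates. Each interval stands alone and is not adjusted for the 29 genes.

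**Figure D1:**
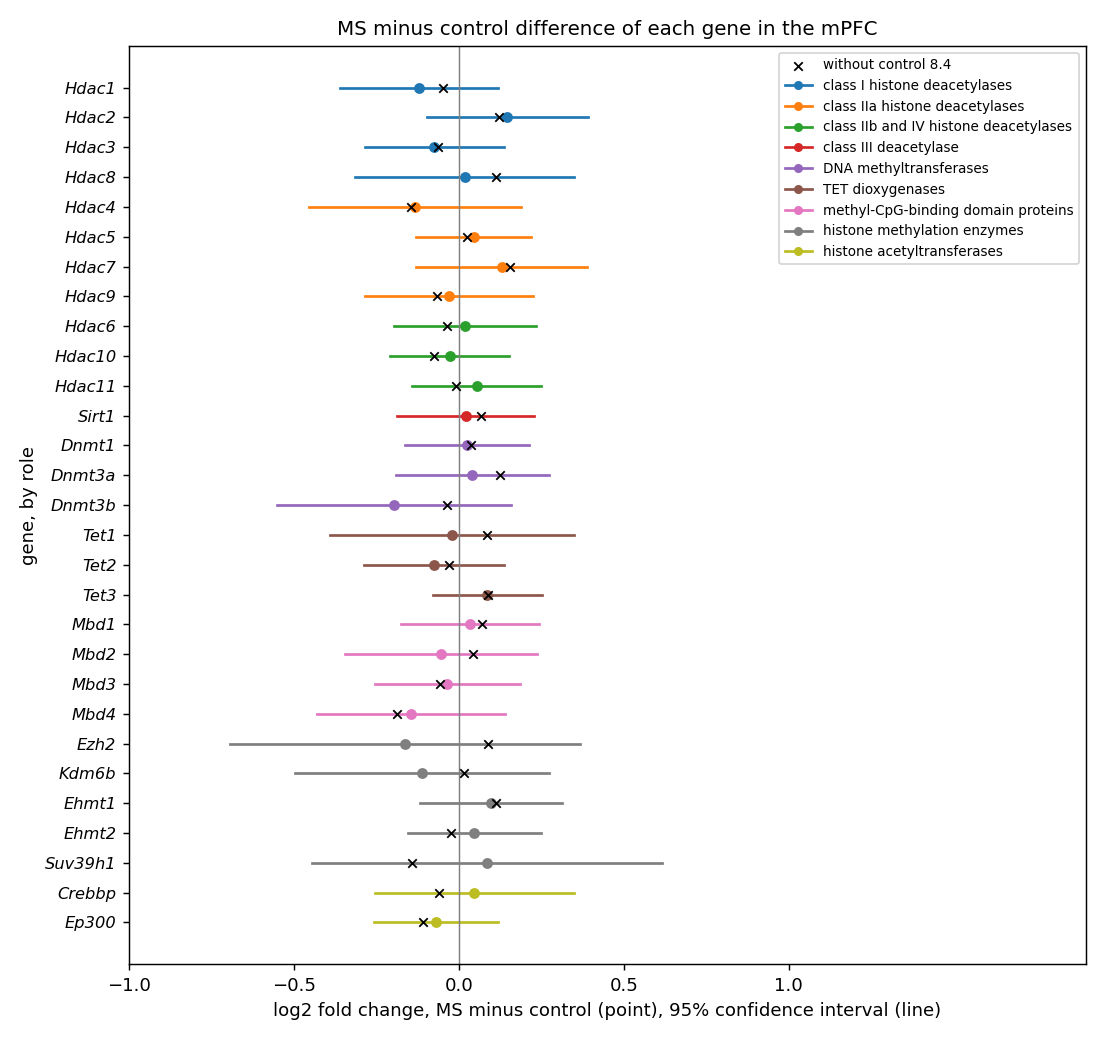
Points give the log2 fold change (x axis, MS minus control, 4 mice each) of each gene (y axis, coloured by role), lines the 95% confidence interval of the limma fit and crosses the value without control 8.4. All lines cross 0, and the widest belong to Ezh2 (-0.69 to 0.37) and Suv39h1 (-0.45 to 0.62).

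Signals spanned a wide range between probes. The brightest were Ehmt2 at a mean level of 5.85 (97.7% of tested probes were dimmer), Hdac5 at 5.36, Mbd3 at 4.91 and Crebbp at 4.51. The dimmest were Hdac2 at -3.13 (26.5% dimmer), Mbd4 and Dnmt3b at -2.47 each and Tet3 at -2.40. Mbd4 and Dnmt3b, and likewise Hdac8 and Ezh2 at -1.97 each, lay closer than their spread between samples. Probes differ in how they bind, so this order describes probe signals and is no order of transcript abundance.

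**Figure D2:**
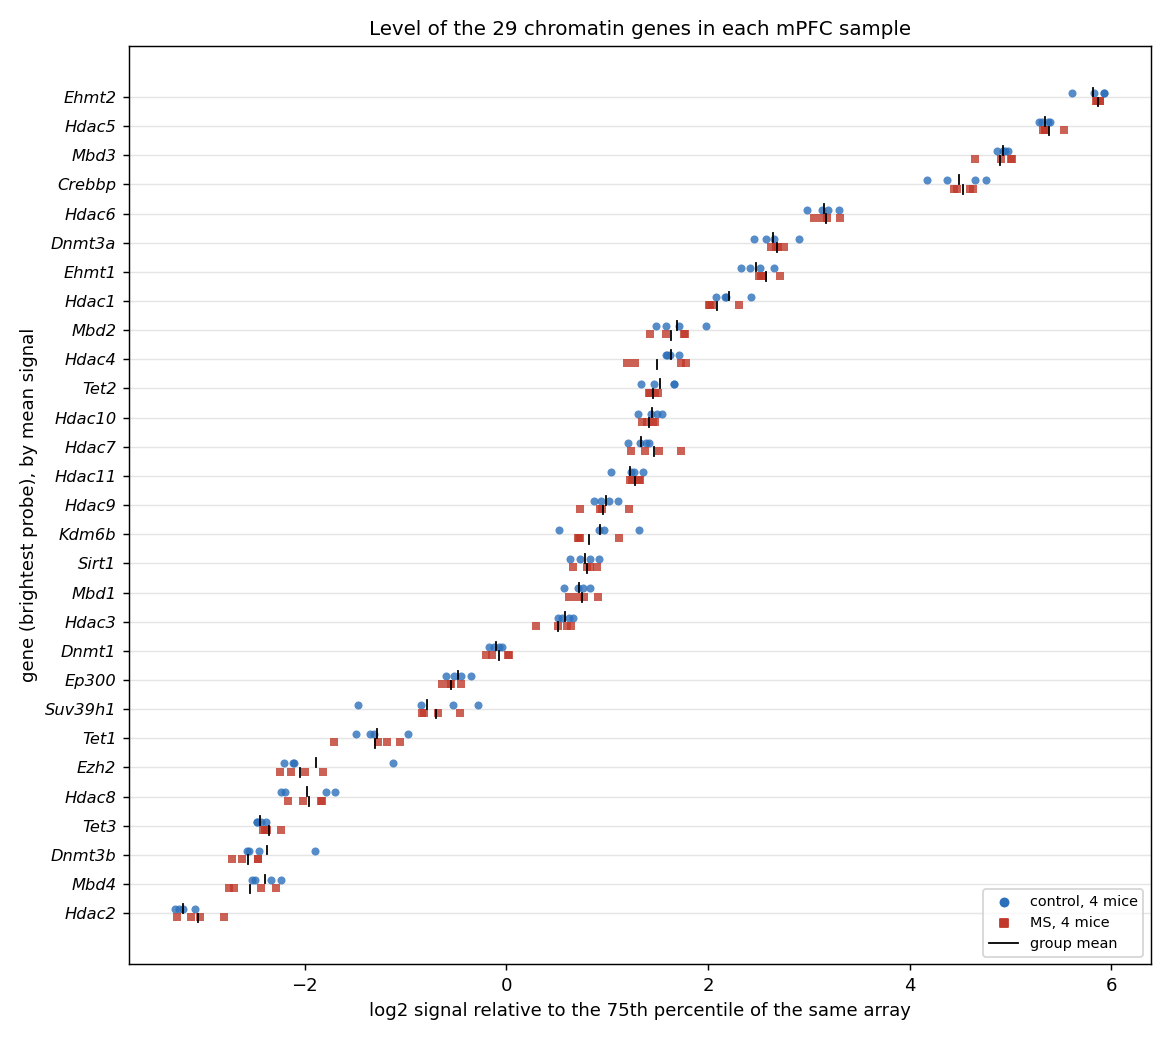
Level of each gene (y axis, brightest probe, ordered by mean) in each sample (x axis, log2 signal relative to the 75th percentile of the array), with circles for 4 controls, squares for 4 MS mice and bars for group means. The groups overlap in every row, from Hdac2 near -3.13 to Ehmt2 near 5.85.

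Class I deacetylases are mostly nuclear, and Hdac1 and Hdac2 are the enzymes of the Sin3, NuRD and CoREST repressor complexes. Hdac2, which limits synaptic plasticity and memory in mice, had levels of -3.25, -3.08, -3.21 and -3.28 in controls 6.2, 8.5, 8.2 and 8.4. In MS 5.3, 7.1, 7.2 and 7.6 it had -3.26, -2.80, -3.04 and -3.12. MS 7.1 was the highest, and MS 5.3 and 7.6 lay within the control range. The log2 fold change was 0.15 (95% confidence interval -0.10 to 0.39), 0.12 without control 8.4 and 0.06 without MS 7.1. Its probe is spotted 10 times on an array, and the SD between these spots was 0.075 to 0.157 log2 per array, against 0.09 and 0.19 between the 4 samples of a group. Hdac1, its close paralogue, ran from 2.08 to 2.42 in controls and from 2.01 to 2.30 in MS, with a log2 fold change of -0.12 (-0.36 to 0.12). The other Hdac1 probes gave -0.05 and -0.06. Hdac3, the catalytic subunit of the NCoR complexes, ran from 0.51 to 0.66 and from 0.30 to 0.64, a log2 fold change of -0.07 (-0.29 to 0.14). Hdac8 gave 0.02 (-0.31 to 0.35), with 0.11 without control 8.4. It was 0.21 without the 3 arrays of highest bulb score, control 8.4, control 8.5 and MS 7.6. Of the 4 class I genes, 2 were higher and 2 lower in MS, none past the test.

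Class IIa deacetylases shuttle between nucleus and cytoplasm and bind the MEF2 transcription factors. Hdac4 had levels of 1.58, 1.71, 1.62 and 1.596 in controls 6.2, 8.5, 8.2 and 8.4. In MS 5.3, 7.1, 7.2 and 7.6 it had 1.78, 1.20, 1.28 and 1.73. The MS mice fell on both sides of the narrow control range, MS 7.1 and 7.2 below it and MS 5.3 and 7.6 above it. This gave a log2 fold change of -0.13 (-0.45 to 0.19), with an SD of 0.06 in controls and 0.30 in MS. Leaving out 1 mouse moved it from -0.23 (without MS 5.3) to -0.035 (without MS 7.1). Hdac7 ran from 1.20 to 1.41 in controls and from 1.24 to 1.73 in MS, with 0.13 (-0.13 to 0.39) and 0.04 without MS 7.1. Hdac5, whose loss alters responses to drugs and stress in mice, varied little, from 5.29 to 5.39 in controls and from 5.32 to 5.53 in MS, with 0.04 (-0.13 to 0.22). Hdac9 gave -0.03 (-0.28 to 0.23).

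The class IIb and IV genes and Sirt1 had small differences. Hdac6, the cytoplasmic deacetylase of tubulin, gave 0.02 (-0.20 to 0.23), and its other probe, which starts 12 bases away on the same transcript, gave 0.01. Hdac10, a polyamine deacetylase, gave -0.03 (-0.21 to 0.15). Hdac11, the only class IV enzyme, gave 0.05 (-0.14 to 0.25). Sirt1, an NAD-dependent deacetylase, ran from 0.63 to 0.92 in controls and from 0.66 to 0.90 in MS, with 0.02 (-0.19 to 0.23).

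Of the DNA methyltransferases, Dnmt1 copies methylation after replication, and Dnmt3a and Dnmt3b set it anew. Dnmt1 ran from -0.17 to -0.05 in controls and from -0.20 to 0.02 in MS, a log2 fold change of 0.02 (-0.16 to 0.21). Dnmt3a, the form that prevails in mature neurons, gave 0.04 (-0.19 to 0.27), with 0.20 within slide row 1 and -0.12 within slide row 2. Row 2 held controls 8.2 and 8.4 and MS 7.2 and 7.6, so every row 2 value here includes control 8.4. Dnmt3a levels in row 2 were 2.66 and 2.90 in these controls and 2.63 and 2.69 in these MS mice. Dnmt3b had levels of -2.58, -2.46, -2.56 and -1.90 in controls 6.2, 8.5, 8.2 and 8.4. In MS 5.3, 7.1, 7.2 and 7.6 it had -2.72, -2.46, -2.62 and -2.46. Control 8.4 was alone at the top, and the other 7 samples lay between -2.72 and -2.46. This gave a log2 fold change of -0.20 (-0.55 to 0.16), and -0.04 without control 8.4.

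All 3 probes of Dnmt3b had a lower mean in MS. They lie on chromosome 2 of build mm9 at 153513403 to 153513462, 153512098 to 153512157 and 153512991 to 153513050. The dimmer probes gave -0.19 (95% confidence interval -0.46 to 0.07) and -0.21 (-0.43 to 0.003), and without control 8.4 they gave -0.24 and -0.16. The highest sample was control 8.4 at the brightest and the dimmest probe, and control 8.5 at the other. With the mean over the 3 probes the log2 fold change was again -0.20, and its unadjusted limma p was 0.046 (adjusted p = 0.9998). No other member had an unadjusted limma p under 0.05 in this or any other alternative, next to 2.39% of all tested probes in the main fit. The mean over the 3 probes was not fitted without control 8.4. In the series table of the authors the brightest probe gave -0.09.

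TET enzymes start the removal of DNA methylation. Tet1 ran from -1.50 to -0.97 in controls and from -1.71 to -1.05 in MS, with -0.02 (-0.39 to 0.35). The value was 0.22 within slide row 1, -0.26 within slide row 2, 0.08 without control 8.4 and 0.26 without the 3 arrays of highest bulb score. In row 2, controls 8.2 and 8.4 had -1.50 and -0.97, and MS 7.2 and 7.6 had -1.27 and -1.71. The dimmer Tet1 probes gave -0.14 and -0.09. Tet2 gave -0.08 (-0.29 to 0.14), with 0.05 within slide row 1 and -0.20 within slide row 2. Tet3, the main TET transcript of many neurons, ran from -2.48 to -2.38 and from -2.41 to -2.24, with 0.09 (-0.08 to 0.25), and its dimmer probes gave 0.07 and 0.12.

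Methyl-CpG-binding domain proteins were read by 1 or 2 probes each. Mbd3 is a core subunit of the NuRD complex. Its brightest probe had 4.93, 4.97, 4.95 and 4.87 in controls 6.2, 8.5, 8.2 and 8.4, and 5.02, 4.65, 4.91 and 5.003 in MS 5.3, 7.1, 7.2 and 7.6. MS 7.1 was the lowest. The second probe had 1.36, 1.54, 1.47 and 1.004 in those controls, and 1.39, 1.62, 1.51 and 1.63 in those MS mice. Here control 8.4 was the lowest. The log2 fold changes were -0.03 (-0.25 to 0.19) and 0.19 (-0.09 to 0.48), and without control 8.4 they were -0.06 and 0.08. Mbd4, a thymine glycosylase that repairs deaminated methylcytosine, ran from -2.52 to -2.23 in controls and from -2.75 to -2.28 in MS, with -0.15 (-0.43 to 0.14), and -0.075 without MS 7.1. Mbd1 gave 0.03 (-0.18 to 0.24) and Mbd2, a NuRD subunit that binds methylated CpG, -0.05 (-0.35 to 0.24). The second probes gave -0.04 for Mbd1 and 0.05 for Mbd2.

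Among histone methylation enzymes, Ezh2 is the H3K27 methyltransferase of Polycomb repressive complex 2 and is high in dividing progenitors. It had levels of -2.11, -2.10, -2.20 and -1.13 in controls 6.2, 8.5, 8.2 and 8.4. In MS 5.3, 7.1, 7.2 and 7.6 it had -2.25, -1.82, -1.997 and -2.14. Control 8.4 lay 0.96 above the mean of the other 7 samples. The log2 fold change was -0.16 (-0.69 to 0.37), and 0.09 without control 8.4, where the SD of the controls went from 0.51 to 0.06. Control 8.5 and MS 7.6, with bulb scores of 0.83 and 1.41, had Ezh2 levels within the range of the other 5 samples. For Dnmt3b, control 8.5 (-2.455) lay just above those 5 (-2.717 to -2.461), and MS 7.6 (-2.465) lay within their range. For Hdac8 both samples (-1.791 and -1.824) lay above those 5 (-2.231 to -1.84), and control 8.4 was higher still (-1.695). The part of bulb tissue in these levels was not tested. The Ezh2 probe lies on chromosome 6 at 47480307 to 47480366 (mm9). Suv39h1, an H3K9 methyltransferase of heterochromatin, moved the other way from Ezh2 in control 8.4. It had -0.53, -0.28, -0.85 and -1.47 in controls 6.2, 8.5, 8.2 and 8.4, and -0.68, -0.46, -0.82 and -0.84 in MS 5.3, 7.1, 7.2 and 7.6. Control 8.4 was the lowest of the 8 and control 8.5 the highest, so that the control mice spanned all MS values. The log2 fold change was 0.09 (-0.45 to 0.62), and -0.14 without control 8.4.

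**Figure D3:**
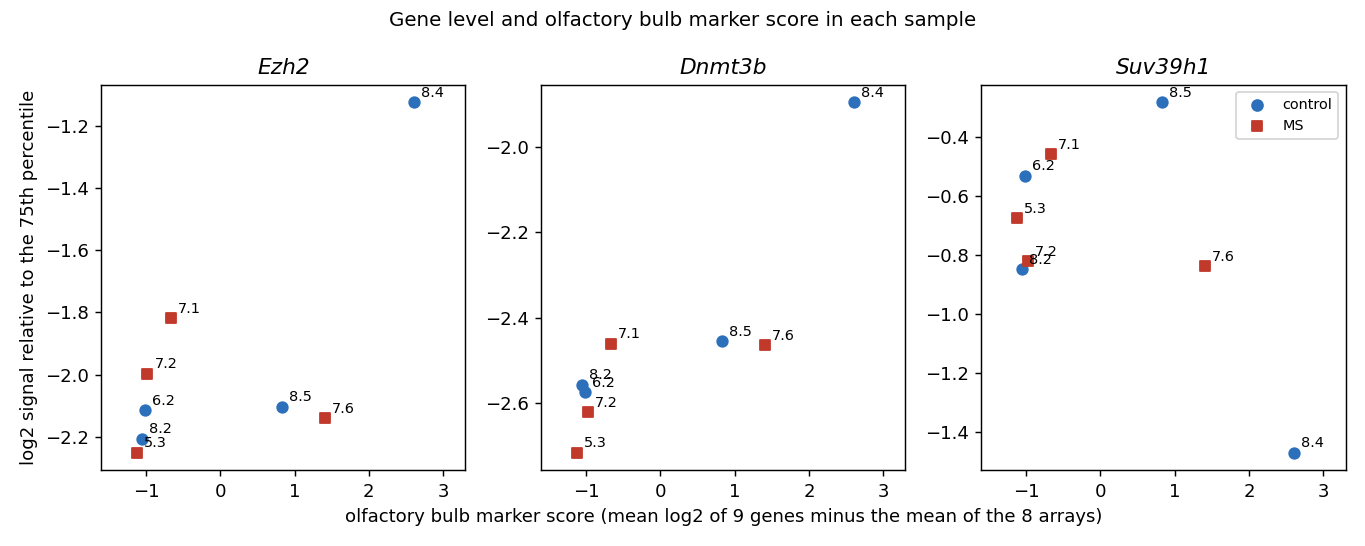
Level of Ezh2, Dnmt3b and Suv39h1 (y axes, log2 signal relative to the 75th percentile of the array) against the olfactory bulb marker score (x axis, mean log2 of 9 genes relative to the 8 arrays), 1 point per sample with its animal number. Control 8.4, at a score of 2.60, is the highest sample for Ezh2 (-1.13) and Dnmt3b (-1.90) and the lowest for Suv39h1 (-1.47).

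Kdm6b, an H3K27 demethylase induced by activity, ran from 0.52 to 1.31 in controls and from 0.71 to 1.12 in MS, with -0.11 (-0.50 to 0.27) and 0.02 without control 8.4. Ehmt2 (G9a) and Ehmt1 (GLP) form the H3K9 dimethyltransferase of active chromatin regions. Ehmt2 ran from 5.61 to 5.93 in controls and from 5.84 to 5.89 in MS, with 0.05 (-0.15 to 0.25). Ehmt1 had 2.41, 2.33, 2.65 and 2.52 in controls 6.2, 8.5, 8.2 and 8.4, and 2.50, 2.72, 2.55 and 2.53 in MS 5.3, 7.1, 7.2 and 7.6. MS 7.1 was the highest and the other MS mice lay within the control range. For Ehmt1 the log2 fold change was 0.10 (-0.12 to 0.31), with 0.24 within slide row 1 and -0.05 within slide row 2, and its second probe gave -0.08 (-0.26 to 0.10). The acetyltransferases Crebbp (CBP) and Ep300 (p300), coactivators of CREB, gave 0.05 (-0.25 to 0.35) and -0.07 (-0.26 to 0.12). Crebbp was lowest in control 8.4, at 4.17, and its log2 fold change was -0.06 without that animal.

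Probes of 1 gene were compared for the 13 members that had several, as 18 pairs of the brightest with another. The sign differed in 7 of 18 pairs (Ehmt1, Hdac10, Hdac8, Mbd1, Mbd2, Mbd3 and Tet2), and the Mbd3 pair was over 0.2 log2 apart. Without control 8.4 it differed in 8 of 18 pairs (Ehmt1, Mbd1, Mbd3, 1 of Hdac1 and both pairs of Tet1 and of Tet3), and a Tet1 pair was over 0.2 apart, at 0.08 and -0.14, while the Mbd3 gap was 0.135. No probe of any member had an unadjusted limma p under 0.05. The first 30 of 60 bases are shown for Mbd3 and Ehmt1, whose second probes differed from the brightest by 0.23 and -0.18 in log2 fold change over all 8 samples. The probe annotation places the probes of each gene on separate stretches of 1 transcript. They start at bases 1413 and 864 for Mbd3 and at 4922 and 4552 for Ehmt1. Capitals mark AATAAA, the usual polyadenylation signal, and runs of at least 4 GT units.
Mbd3, brightest probe: gctggaggaagtttctggaaacacacctgg
Mbd3, second probe: tgtggctgaacactgcacagccactgtgca
Ehmt1, brightest probe: GTGTGTGTGTgaGTGTGTGTgactcttcta
Ehmt1, second probe: ccacacgctatgatgatgatgAATAAActc
The Mbd3 probes lie on the minus strand of chromosome 10 (mm9) at 79855402 to 79855461 and 79856639 to 79856698. The Ehmt1 probes lie on the minus strand of chromosome 2 at 24646395 to 24646454 and 24646765 to 24646824. Read on the strand of the probe, GTGTGTGT occurs in 0.55% of the 55681 probes of the array and AATAAA in 10.06%. Exons and untranslated regions of these positions were not analysed here.

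**Figure D4:**
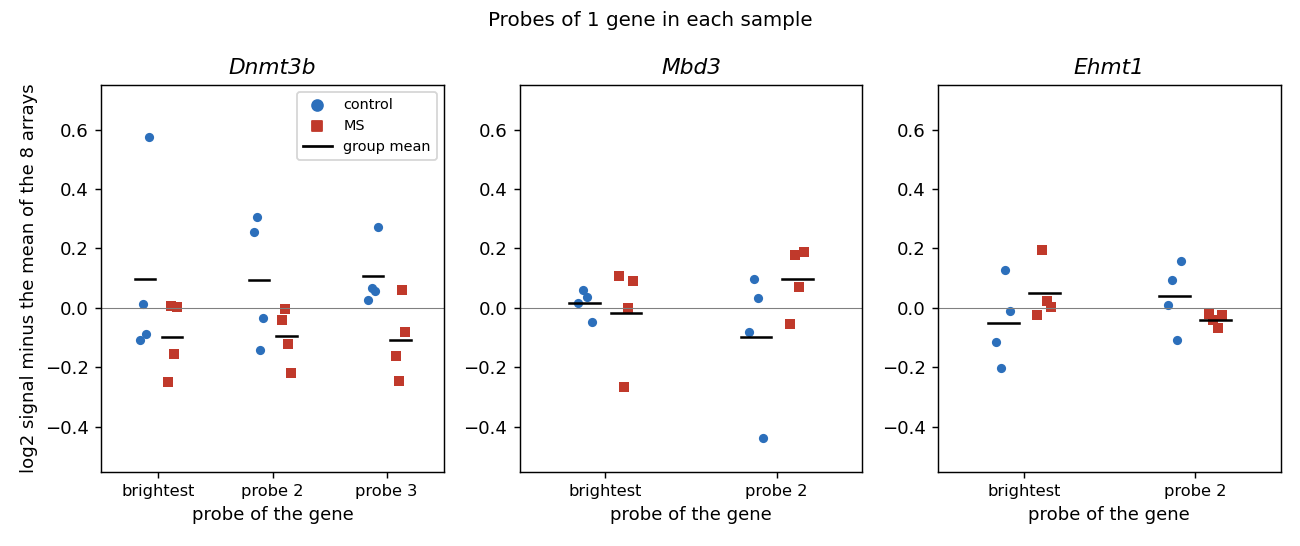
Log2 signal minus the mean of the 8 arrays (y axis) for each probe (x axis) of Dnmt3b, Mbd3 and Ehmt1, with circles for 4 controls, squares for 4 MS mice and bars for group means. The MS mean lies below the control mean at all 3 Dnmt3b probes (-0.20, -0.19 and -0.21), and the direction differs between the probes of Mbd3 and of Ehmt1.

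Control 8.4 held the highest or lowest value of the 8 samples for 18 of the 29 genes (62.1%), against 50.9% of all tested probes. It was the highest for 10 genes, Hdac1, Hdac8, Sirt1, Dnmt3a, Dnmt3b, Tet1, Tet2, Mbd2, Ezh2 and Kdm6b, which is 34.5% against 17.9% of all tested probes. It was the lowest for 8 genes, Hdac2, Hdac5, Hdac6, Hdac10, Hdac11, Ehmt2, Suv39h1 and Crebbp (27.6% against 33.0%). Among the 86 further chromatin genes described below, control 8.4 was the highest for 23 (26.7%) and the lowest for 17 (19.8%), together 46.5%. A high share of highest values was thus not particular to the 29 genes. For these 29 the next most often extreme sample was MS 7.1, at 11 genes. Without control 8.4 the sign of the log2 fold change turned for 9 of the 29, none of which had passed the test. Besides Ezh2, Suv39h1, Kdm6b, Crebbp and Tet1, these were Mbd2 (-0.05 to 0.04), Ehmt2 (0.05 to -0.02), Hdac6 (0.02 to -0.04) and Hdac11 (0.05 to -0.01). Without turning, Hdac1 went from -0.12 to -0.05, Hdac8 from 0.02 to 0.11 and Dnmt3a from 0.04 to 0.125. Sirt1 went from 0.02 to 0.07, Mbd1 from 0.03 to 0.07 and Tet2 from -0.08 to -0.03. Hdac10 went from -0.03 to -0.07, Mbd4 from -0.15 to -0.19 and Ep300 from -0.07 to -0.11. The largest move without control 8.4 was 0.254. Leaving out any 1 of the other mice moved values by up to 0.17 and turned the sign of 1 to 5 members. Over the members as a whole the mean level in control 8.4 was 0.05 above the mean of the 8 arrays, and the other samples lay between -0.04 and 0.02.

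**Figure D5:**
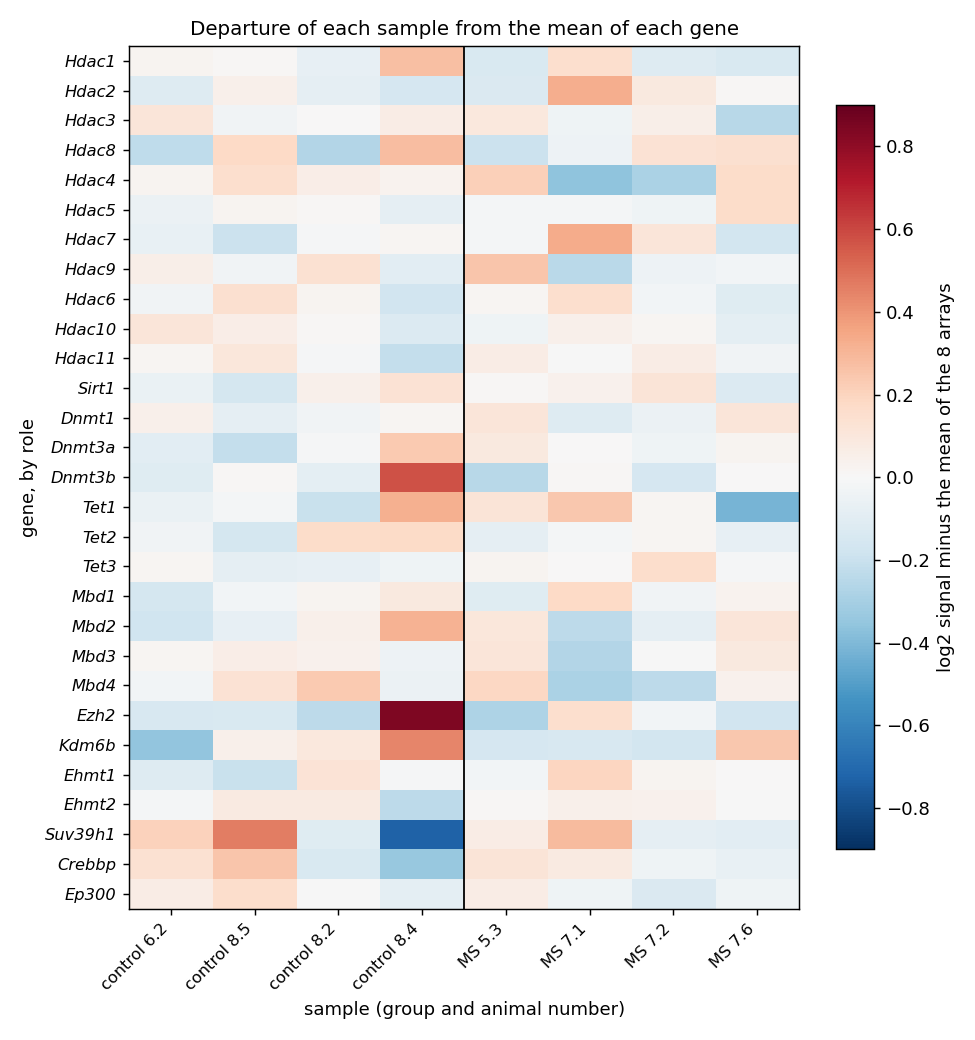
Colour gives the log2 signal of each sample (columns, 4 controls then 4 MS mice) minus the mean of the 8 arrays for each gene (rows, by role), from blue (lower) to red (higher). The column of control 8.4 holds the strongest colours, among them Ezh2 (red) and Suv39h1 (blue), and no row separates the groups.

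The wider chromatin machinery gave a similar picture. Of 86 further genes (sirtuins, methylation readers, corepressor and Polycomb subunits, H3K9 and H3K27 enzymes, acetyltransferases and acetyl-lysine readers), 0 passed the adjusted threshold in limma and 2 had an unadjusted p under 0.05 (2.33%, against 2.39% of all tested probes). There were 44 higher and 42 lower in MS, with a median log2 fold change below 0.01 (0.003). The same 2 were the only ones whose groups did not overlap (background 1.43%), and both were higher in MS. Gadd45a, a stress-induced protein linked to DNA demethylation, had -1.79, -1.71, -1.28 and -1.58 in controls 6.2, 8.5, 8.2 and 8.4, and -1.07, -1.06, -1.06 and -1.24 in MS 5.3, 7.1, 7.2 and 7.6. The lowest MS value lay just above the highest control. The log2 fold change was 0.48 (95% confidence interval 0.22 to 0.75), with 0.69 and 0.28 within slide rows 1 and 2. Mta1, a subunit of the NuRD complex, had -0.07, -0.11, -0.11 and -0.41 in those controls and -0.01, 0.22, 0.02 and 0.01 in those MS mice. Control 8.4 was again the lowest. Its log2 fold change was 0.23 (0.01 to 0.46), and 0.16 without that animal. The adjusted limma p was 0.9995 for both genes. By list, 15 of 24 corepressor genes, 2 of 6 sirtuins, 8 of 16 methylation readers and partners, 4 of 8 Polycomb genes, 9 of 18 H3K9 and H3K27 genes and 6 of 14 acetyltransferases and readers were higher in MS, next to 54.9% of all tested probes.

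CpG, the dinucleotide that DNA methyltransferases methylate, was counted in the promoters. Of the 29 genes, 23 matched the RefSeq promoter table (GRCm38.p6, 300 bases around the start). At the first listed start they held a median of 28 CpG, against 7 over all 27025 genes, and 14.0% of all genes held as many. Those 27025 are all genes of the promoter table, detected here or not, while the members were all detected. No count was made over detected genes only, so the part of expression in this difference was not tested. The range was 0 to 57, and 3 of the 23 (Hdac9, Dnmt1 and Hdac8) held fewer than 7. The count depends on the start used. Dnmt1 has 3 listed starts, with 2 CpG at the first and 33 at the richest. Suv39h1 has 15 at the first and 37 at the richest, while Hdac9 has at most 3 and Hdac8 at most 6. Methylation itself was not measured here.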

How the data were processed

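Spot intensity values were extracted by the authors with Agilent Feature Extraction 10.10.1.1 from Cy3 arrays labelled with 200 ng of RNA. The deposited processed intensity is background-subtracted and not normalised between arrays. A series table of normalised log2 values, also deposited, was used as an alternative only. The file headers give probe coordinates on build mm9. Control and outlier spots were left out, spots of a probe averaged, and the log2 intensity minus the 75th percentile of the array (588.0 to 892.4) used. Probes entered the fit if, in 1 group or both, every one of the 4 arrays read them well above background (34096 of 55681 probes). Per array 61.54% to 68.91% of probes were well above background and none was saturated. Array number limits the precision.

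MS and control were compared with limma 3.58.1 (lmFit, eBayes, two-sided, no covariate) in R 4.3.3 with data.table (version 1.17.8) and statmod 1.5.0, with Benjamini-Hochberg adjustment over all tested probes at 0.05. Tested on simulated data, the fit recovered 84% of 100 probes changed by 1 log2 and 99% of 100 changed by 2. The simulated noise was independent between arrays, with no outlying array and no related mice. Smaller changes were not simulated. The members had log2 fold changes of -0.196 to 0.147, so the recovery at such sizes is not known. Figures used matplotlib 3.10.9 in Python 3.11.15. Symbols came from RefSeq (GRCm38.p6) through accession for 27235 probes, symbol for 3581 and synonym for 565, and 24300 kept the name in the file.

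Members and lists were chosen with earlier results of these data known. All 29 members are named. Of 86 further chromatin genes, those past the threshold, otherwise up to 3 higher and 3 lower without overlap, are named, and other probes where they differ in sign or by over 0.2. Remaining probes were given after their values were seen. The arrays sat on 1 slide in 2 rows, each with 2 arrays of each group, and control 8.4 was in row 2. Labels of 3 controls start with 8 and those of 3 MS mice with 7. The sources used here do not explain it, and mice sharing it could be littermates and not independent. The p values measure only the spread between these samples.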

Additional observations from a re-analysis of the deposited data

Results flagged for a closer look

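In 4 of 58 tested groups of 4 samples (29 genes, 2 groups each) the highest sample stood apart from the other 3 by Dixon's criterion, which chance meets in about 1 group in 20. Hdac1 was at 2.304 in MS 7.1, and the next MS mouse was at 2.036. Hdac5 was at 5.529 in MS 7.6, and the next MS mouse was at 5.347. Ezh2 was at -1.126 in control 8.4, and the next control was at -2.103. Kdm6b was at 1.117 in MS 7.6, and the next MS mouse was at 0.728.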

How the results depend on the processing

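The count of members past an adjusted p of 0.05 in limma was 0 in all 18 alternatives that gave a test, as was that of the further chromatin genes. They were normexp background correction, quantile and median scaling, the table of the authors, which lacks Ezh2, both filters on dim probes, the slide row as a block, the label number as a random block, the mean over probes and each mouse left out in turn. The last, chosen after seeing the data, left out the 3 arrays of highest bulb score. No paired analysis was possible because the groups share no animal number. The median log2 fold change of the members (0.02) was -0.045 within slide row 2 and -0.020 to 0.010 with 1 mouse left out, and 0 without the 3 arrays. Signs turned for 9 members without control 8.4, 11 within slide row 1 and 7 within slide row 2. Over all probes the count past the adjusted threshold was 0 in limma in each alternative run on them. Under an unadjusted limma p of 0.05 there were 425 (normexp) to 3836 (label number as a random block, consensus correlation -0.224), against 815 (2.39%) in the main fit. No label number occurs in both groups, so a negative correlation narrows the standard error of the group difference. The unadjusted p values of that alternative can therefore be too small. The median standard error of the members was 0.10 log2, which limits what 4 mice a group can show.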
